A study of Mus musculus with 16 samples.

Results

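The libraries described here are those that held the RNA of liver, chosen by the reading of 1 gene. Of the 16 libraries of RNA from newborn mouse pups, 8 had at least 50000 counts of Alb, the albumin gene of hepatocytes, per 1000000 counts (CPM, here before scaling), and NAC was compared with placebo among them. The level of Alb therefore chose the libraries, and it is given as a description only. The last library inside the threshold was the dead null NAC library labelled liver at 51003 CPM, and the first outside it was the dead null placebo library labelled lung at 9280 CPM. In the kept libraries Alb reached up to 101254 CPM.

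All pups were offspring of parents heterozygous for Man1a2tm1.1Ahe, an allele without exon 2 of Man1a2, on the C57BL/6J background. Man1a2 encodes a Golgi mannosidase that trims N-glycans on newly made glycoproteins. The parents were given N-acetyl cysteine (NAC, a precursor of cysteine and glutathione, at up to 1 g per kg of body weight) or water as placebo, starting the week before breeding and ending at delivery. Pups were watched for 24 h at intervals of 8 h, those that died were harvested at death and the survivors at the end. The surviving groups were wild type (WT) and heterozygous newborns, and those that died were heterozygous or null (homozygous for the deletion). Each library was 1 pool of RNA from 3 experiments, or from 2 for dead heterozygous pups, so no group had a replicate of its own. Among the kept libraries, 5 were from NAC-exposed pups (live WT, live heterozygous and dead heterozygous with 1 each, and dead null with 2) and 3 from placebo pups (live WT, live heterozygous and dead heterozygous). This gave 3 pairs of a NAC and a placebo library within a pup group, while the 2 dead null libraries had no placebo partner.

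The tissue labels of the kept libraries were mixed. The NAC libraries of live WT and live heterozygous pups and 1 of the dead null NAC libraries were labelled liver, as was the placebo library of dead heterozygous pups. The placebo libraries of live WT and live heterozygous pups, the NAC library of dead heterozygous pups and the other dead null NAC library were labelled lung. In each of the 3 pairs the NAC and the placebo library thus carried opposite tissue labels. Measured against markers, all 8 held liver RNA. Hnf4a, a transcription factor that defines hepatocytes, stood at 213 to 492 CPM in the kept libraries and at 0 to 78.7 in the others. The summed level of the lung markers was 49.3 to 72.1 CPM in the kept libraries and 11352 to 24983 in the others. For dead null pups an exchange of tissue labels within a treatment does not give the measured contents. Both NAC libraries held liver RNA, while both placebo libraries were outside the threshold, with lung markers summing to 13011 CPM (labelled lung) and 16837 CPM (labelled liver). Whether a tissue or a treatment label is at odds there cannot be told apart, so the treatment of the dead null libraries is given only as labelled. In the other pup groups such an exchange does give the measured contents. Whether their treatment and pup group labels are right was not tested, so these too are given as labelled. The dead null libraries take no part in the difference between treatments fitted within pup groups. They do count as NAC libraries where the libraries of one tissue label are compared. Libraries are named below by their labelled pup group and treatment, and values within the libraries of one tissue label are given for the leading genes and main lists.

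The newborn liver works both as a metabolic organ and as a blood-forming one. At birth the placental supply of glucose ends, and hepatocytes switch to glycogen breakdown, gluconeogenesis and the oxidation of fatty acids from milk, while lipid synthesis declines. Blood formation, which occupies much of the fetal liver, recedes over the days around birth. NAC supplies cysteine for glutathione, the main thiol antioxidant of the hepatocyte, so that genes of sulfur amino acid metabolism and the targets of NRF2, the factor that answers oxidative stress, are the readouts closest to the compound itself.

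Kept libraries had from 14115802 to 16107749 counts. Between 0.845 and 6.29% of these fell on Rn45s, a ribosomal RNA precursor. Among the 8 libraries, the correlation of log CPM ranged from 0.875 to 0.987. The 2 dead null NAC libraries correlated at 0.884, while the dead null NAC library labelled liver and the live heterozygous placebo library correlated at 0.987, the closest of all pairs. These closest libraries still differed by more than sampling noise. In a principal component analysis of the kept libraries, the first component held 54.9% of the variance. It placed the dead null NAC library labelled lung (64.6), the dead heterozygous placebo library (35.4), the live WT NAC library (33.8) and the dead heterozygous NAC library (26.1) on one side. The live heterozygous NAC (-27.0), live WT placebo (-35.2), dead null NAC labelled liver (-46.0) and live heterozygous placebo (-51.8) libraries stood on the other. Neither treatment nor label separated along this axis, and the libraries labelled dead null with NAC lay toward its opposite ends. Survival came closer to a split. The first side held dead pups apart from the live WT NAC library, and the other side live pups apart from the dead null NAC library labelled liver. Only the live WT pair had its libraries on both sides. On the second component (18.1%) each NAC library of a pair stood above its placebo partner, at 28.9 against 2.90 for live WT, 16 against -15.5 for live heterozygotes and 33.9 against -6.41 for dead heterozygotes. The dead null NAC libraries were the lowest there, at -42.1 (labelled lung) and -17.7 (labelled liver).

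**Figure D1:**
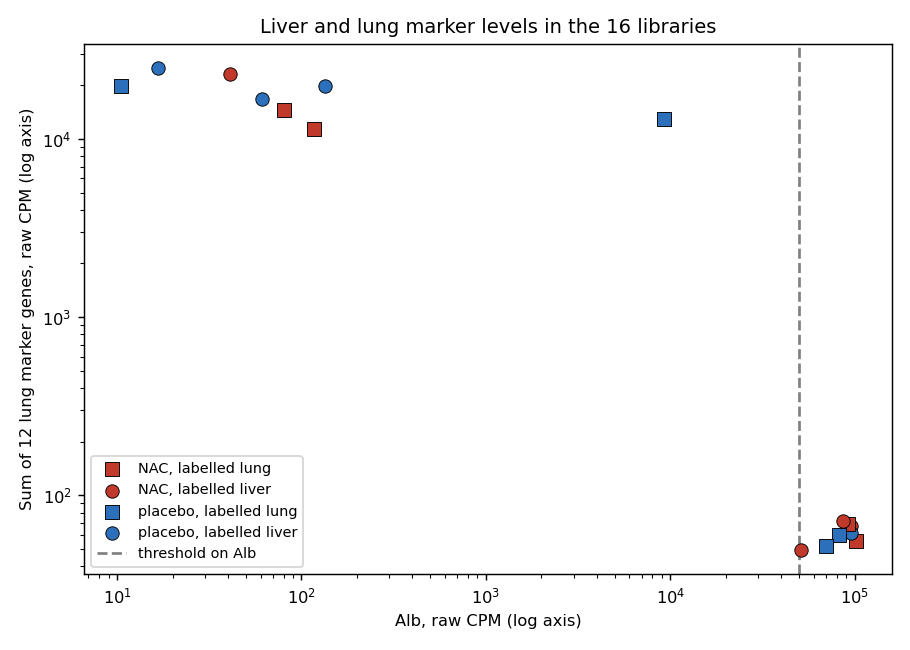
Summed level of 12 lung marker genes (vertical) against the level of Alb (horizontal), both in raw CPM on log axes, in each of the 16 libraries, with treatment by colour, the labelled tissue by marker and the threshold of 50000 CPM as a dashed line. The 8 kept libraries lie together at 51003 to 101254 CPM of Alb and 49.3 to 72.1 CPM of lung markers, and the nearest library outside holds 9280 CPM of Alb.

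**Figure D2:**
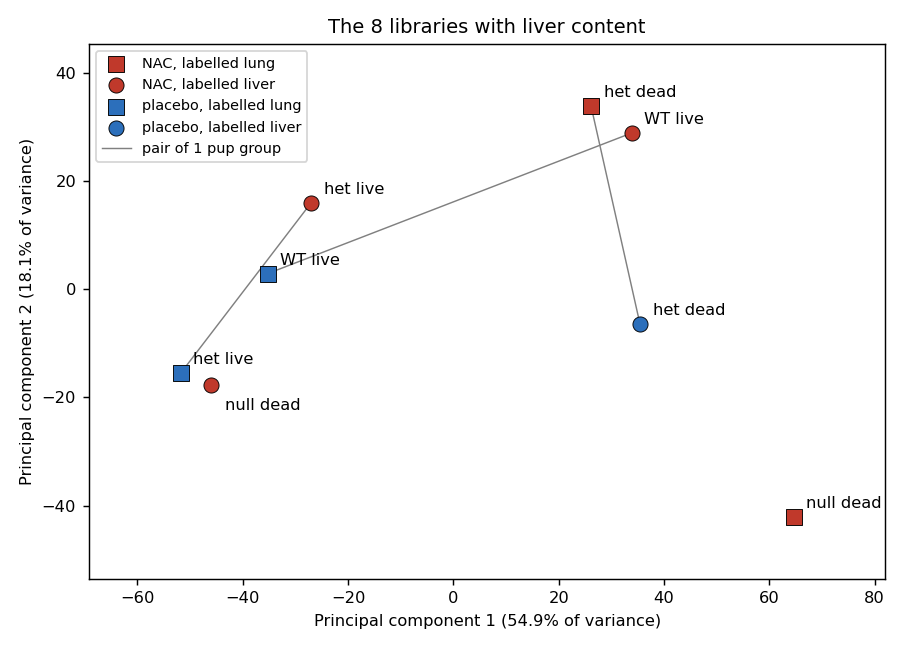
First and second principal components of log2 CPM in the 8 kept libraries, with treatment by colour, the labelled tissue by marker and a line joining the pair of each pup group. The first axis, with 54.9% of the variance, holds both NAC and placebo libraries on each side, and the 2 dead null NAC libraries lie far apart at 64.6 and -46.0.

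The first question was whether any gene of the liver differed between NAC-exposed and placebo pups alike in the 3 pup groups. No gene passed. With pup group as a block, edgeR's quasi-likelihood test called 0 of 12993 genes higher and 0 lower at an adjusted p under 0.05 (0% of genes in each direction), and the smallest adjusted p was 0.256. At an unadjusted p under 0.05 there were 649 genes (4.99%), of which 479 (3.69%) were higher and 170 (1.31%) lower with NAC. This count rests on single libraries. It was 127 (0.978%) without the live WT NAC library, 132 (1.02%) without its placebo partner, 228 (1.75%) and 231 (1.78%) without the live heterozygous placebo and NAC library, and 335 (2.58%) and 351 (2.7%) without the dead heterozygous NAC and placebo library. It was 1534 (11.8%) without the dead null library labelled lung, 1540 (11.9%) without the one labelled liver, and 1539 (11.9%) without both. DESeq2, run as an alternative on the same design, called 27 genes higher (0.208%) and 3 lower (0.0231%). The dead null libraries added nothing to the difference between treatments and entered only the estimate of spread. Without both of them edgeR called 4 genes higher at an adjusted p of 0.0473, and without the library labelled lung alone it called 4 at 0.0428. Hspa1a, Cela3b and Ctrb1 were among them in both cases. Pairs can also be read singly. A total of 2537 genes (19.5%) were higher with NAC in all 3 pairs and 2101 (16.2%) lower, and 37 (0.285%) were at least 2-fold higher and 4 (0.0308%) at least 2-fold lower in all 3. Within a pair, changes of at least 2-fold were seen for 851 genes higher (6.55%) and 600 lower (4.62%) in the live WT pair, 469 (3.61%) and 189 (1.45%) in the live heterozygous pair, and 458 (3.52%) and 318 (2.45%) in the dead heterozygous pair, with no replicate check.

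Genes with the smallest p-values, a mean of at least 10 CPM and one direction in all 3 pairs are described next. They were picked for these values, so their fold changes are a description, and none passed edgeR's adjusted threshold. Of the 10 leading genes on the higher side, 9 were called by DESeq2, against 0.208% of all genes. Those described here had log2 fold changes (log2FC, NAC minus placebo) from 0.86 to 2.42, apart from Ctrb1, whose placebo libraries held at most 3 counts. The 10 on the lower side ranged from -0.67 to -1.50, with 1 called by DESeq2, against 0.0231% of all genes. In 6 of the 10 higher genes the NAC libraries of the 3 pairs lay above all placebo libraries, against 6.92% of all genes. Among the lower genes, 9 of 10 had the 3 paired NAC libraries below all placebo libraries, against 5.7% of all genes. Nothing is read from these counts or from the DESeq2 calls, since the same libraries chose the genes.

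Slc16a3, the lactate exporter of glycolytic cells, lies on chromosome 11 from 120948480 to 120960868 (GRCm38). It had placebo values of 12.2, 5.16 and 15.3 CPM, paired NAC values of 60.2, 16 and 45.7, and dead null values of 14.4 and 9.91. Values are given here and below in the order live WT, live heterozygous and dead heterozygous, and for dead null in the order labelled lung and labelled liver. All paired NAC libraries were above all placebo libraries. Its log2FC of 1.84 (SE 0.26) came from pair values of 2.30, 1.61 and 1.57, with an edgeR unadjusted p of 0.000322 and a DESeq2 adjusted p of 2.82e-05.

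Ppp1r3b, which targets protein phosphatase 1 to liver glycogen and promotes glycogen synthesis, had placebo values of 27.1, 23 and 47.1 CPM, paired NAC values of 114, 55.3 and 127, and dead null values of 31.3 and 19.2. In every pair NAC exceeded all placebo libraries, while neither dead null library did, with a log2FC of 1.59 (SE 0.27). Plek2, a pleckstrin of maturing erythroid cells, had a log2FC of 1.36 (SE 0.21), Ncoa7, a nuclear receptor coactivator, 0.99 (SE 0.19) and Klhl25, an adaptor of a ubiquitin ligase, 0.86 (SE 0.17). H2-T24, a non-classical MHC class I gene, had 1.10 (SE 0.19) and Selenbp2, a selenium-binding protein gene of liver, 1.77 (SE 0.33). Both of the last belong to families with near-identical copies, so the reads assigned to them are uncertain.

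Rab30, which encodes a small GTPase of the Golgi, led the lower side (chromosome 7, 92741603 to 92844535). It had 20.7 and 6.67 CPM in live WT pups, 26.3 and 8.92 in live heterozygous pups, and 304 and 121 in dead heterozygous pups, with 67.3 and 41.9 in the dead null NAC libraries labelled lung and liver. Each NAC library was below its own placebo partner, but the dead groups were far above the live groups under both treatments, so the NAC and placebo ranges overlapped. Its log2FC was -1.50 (SE 0.24) with pair values of -1.61, -1.55 and -1.33 and a DESeq2 adjusted p of 0.000738. Pex16, needed to form peroxisomes, had placebo values of 56.9, 69.4 and 61.7 CPM, paired NAC values of 30.1, 32.4 and 38.1, and dead null values of 50.1 and 64. Its paired NAC libraries were below all placebo libraries, the dead null library labelled liver was among the placebo values, and the log2FC was -0.90 (SE 0.19).

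Hsd17b13, a protein of the hepatocyte lipid droplet, had placebo values of 457, 498 and 460.2 CPM, paired NAC values of 264, 320.0 and 288, and dead null values of 514 and 457, with a log2FC of -0.70 (SE 0.18). Cyp2d9, a cytochrome P450 of a family with close copies, had -0.96 (SE 0.22) and Acot2, a mitochondrial acyl-CoA thioesterase with near-identical neighbours, -1.32 (SE 0.33). Also lower were Slc23a2, a vitamin C transporter, at -0.92 (SE 0.23), Mir22hg, the host gene of a microRNA, at -0.89 (SE 0.23), Brap, a regulator of Ras signalling, at -0.67 (SE 0.18), Tor1b, a torsin of the endoplasmic reticulum, at -0.76 (SE 0.20) and Cisd1, an iron-sulfur protein of the mitochondrial outer membrane, at -0.70 (SE 0.19). For 0 of these 10 genes did all 5 NAC libraries lie below all 3 placebo libraries, against 0.485% of all genes.

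**Figure D3:**
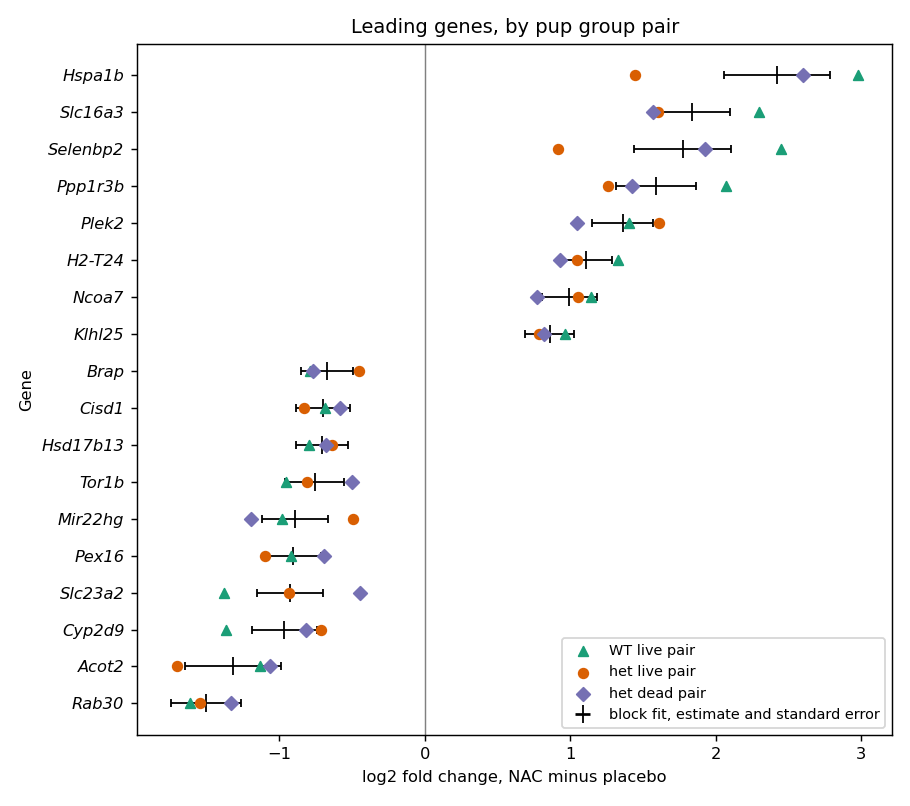
Pair log2FC (NAC minus placebo) by pup group for the leading genes, with the block estimate and its standard error; Ctrb1 is left out because its placebo libraries held at most 3 counts. Hspa1b ranges from 1.44 to 2.98, and Rab30 lies between -1.61 and -1.33.

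The tissue labels bear on these genes. Among the 4 kept libraries labelled lung, the NAC libraries were from dead pups and the placebo libraries from live pups, so treatment and survival cannot be told apart there. Among those labelled liver, 3 NAC libraries stood against 1 placebo library of dead heterozygous pups. Each library of a set came from a different pup group, so pup group could not be a block. In each set 1 of the NAC libraries was dead null. The libraries of both sets had also chosen the genes, so a kept direction is no separate check. All 10 leading higher genes kept their direction in both sets, with Hspa1b at 2.80 and 1.31 and Slc16a3 at 1.78 and 0.88, although H2-T24 came to 0.01 in the libraries labelled liver. Of the 10 lower genes, 9 kept their direction in libraries labelled lung, where Rab30 turned to 1.99, and 8 in those labelled liver, where Slc23a2 (0.19) and Acot2 (0.43) turned. In the libraries labelled lung alone edgeR called 10 genes higher and 18 lower, among them 0 of the 20 leading genes, and in those labelled liver alone 0.

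Hypoxia-inducible genes are switched on by the HIF transcription factors when oxygen falls, and they serve glycolysis, lactate export, matrix hydroxylation and the feedback control of HIF itself. Of 25 tested, 18 were higher in all 3 pairs and 0 lower, against 19.5% and 16.2% of all genes. The median log2FC was 0.75 with the block, against 0.00 over all genes, and 1.30, 0.47 and 0.45 in the live WT, live heterozygous and dead heterozygous pairs. At an unadjusted p under 0.05 there were 10 higher and 0 lower, against 3.69% and 1.31% of all genes. None passed edgeR's adjusted threshold, and DESeq2 called 2 higher, against 0.208%. The study's own hypoxia response category had 10 of 52 genes higher and 5 lower in all 3 pairs (median 0.00). The rise described here is thus that of the 25 genes listed.

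Egln3 encodes a prolyl hydroxylase that marks HIF for degradation and is itself a HIF target. Its levels were 17.9 and 83.8 CPM in live WT pups, 20.3 and 28.2 in live heterozygous pups, and 20.7 and 61.7 in dead heterozygous pups, with 26.8 and 29.4 in the dead null NAC libraries labelled lung and liver. All 5 NAC libraries exceeded all 3 placebo libraries, an order that held for 0.954% of all genes, and the log2FC was 1.43 (SE 0.35). Pfkfb3, which makes the activator of the glycolytic enzyme phosphofructokinase, had placebo values of 14.2, 7.84 and 17.3 CPM, paired NAC values of 67.7, 21.4 and 37.4, and dead null values of 20.7 and 9.53, with a log2FC of 1.60 (SE 0.37) and a DESeq2 adjusted p of 0.0386. NAC was above all placebo libraries in each pair, with the dead null library labelled liver in the placebo range. Ndrg1, a stress gene induced by low oxygen, had placebo values of 98.6, 56 and 136 CPM, paired NAC values of 398, 147 and 315, and dead null values of 166 and 58.8. Here too each paired NAC library exceeded all placebo libraries, with a log2FC of 1.54 (SE 0.41).

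P4ha1 and P4ha2 encode the catalytic subunits of collagen prolyl hydroxylase. P4ha1 had placebo values of 12.8, 9.42 and 14.9 CPM, paired NAC values of 36.4, 11.8 and 23.9, and dead null values of 18.7 and 11.1. For P4ha2 there were placebo values of 4.26, 2.13 and 8.77 CPM, paired NAC values of 16.1, 5.84 and 11.8, and dead null values of 11.4 and 3.65. Each was higher with NAC in every pair, but the live heterozygous NAC library lay within the placebo range for both. The block gave 0.84 (SE 0.32) and 1.26 (SE 0.51). Hif1a, the oxygen-regulated subunit of HIF, which is controlled mainly through protein stability, had a log2FC of -0.14 (SE 0.28) and did not pass.

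The promoters of hypoxia genes are shown because the core letters that HIF binds, ACGTG or GCGTG, can be looked for in them. In 250 bases before the start, on both strands and in RefSeq promoters of GRCm38.p6, 21 of the 25 genes matched with 31 promoters. ACGTG stood in 18 of them (58.1%), against 16.6% of all 32851 promoters, and GCGTG in 17 (54.8%) against 28.2%. These motifs were chosen after values were seen, and a match is no evidence of binding. Below, 5′ to 3′ on the gene's strand, the capitals mark ACGTG or GCGTG, or their reverse complements CACGT and CACGC.
Egln3 (chr12:54203875-54204124, minus strand): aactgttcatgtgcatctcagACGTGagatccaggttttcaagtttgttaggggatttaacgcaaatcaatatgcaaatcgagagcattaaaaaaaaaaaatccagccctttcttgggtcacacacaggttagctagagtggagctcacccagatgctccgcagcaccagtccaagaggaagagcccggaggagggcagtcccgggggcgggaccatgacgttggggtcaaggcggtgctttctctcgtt
P4ha1 (chr10:59323046-59323295, plus strand): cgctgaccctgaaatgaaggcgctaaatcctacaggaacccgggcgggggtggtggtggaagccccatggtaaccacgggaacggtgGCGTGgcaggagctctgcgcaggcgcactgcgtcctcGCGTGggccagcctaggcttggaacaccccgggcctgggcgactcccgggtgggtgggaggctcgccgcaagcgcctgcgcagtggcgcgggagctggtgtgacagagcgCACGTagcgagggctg
P4ha2 (chr11:54100674-54100923, plus strand): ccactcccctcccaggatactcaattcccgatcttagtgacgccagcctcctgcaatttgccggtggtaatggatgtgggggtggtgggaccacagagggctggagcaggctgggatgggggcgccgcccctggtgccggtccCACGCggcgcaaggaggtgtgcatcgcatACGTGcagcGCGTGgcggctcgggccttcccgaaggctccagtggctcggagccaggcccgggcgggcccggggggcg

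Egln3 held ACGTG once, 229 bases before its start. P4ha1 held it 16 bases before the start on the opposite strand together with GCGTG at 163 and 126 bases, and P4ha2 held ACGTG at 78 bases with GCGTG at 107 on the opposite strand and at 69. None of these windows overlapped an annotated exon in GENCODE. The P4ha2 window lies before a RefSeq start but inside the GENCODE gene, which begins at 54100095.

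Within the libraries of one label, the hypoxia median was 0.93 for those labelled lung and 0.29 for those labelled liver. Leaving out a pair gave 0.39 to 0.94.

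**Figure D4:**
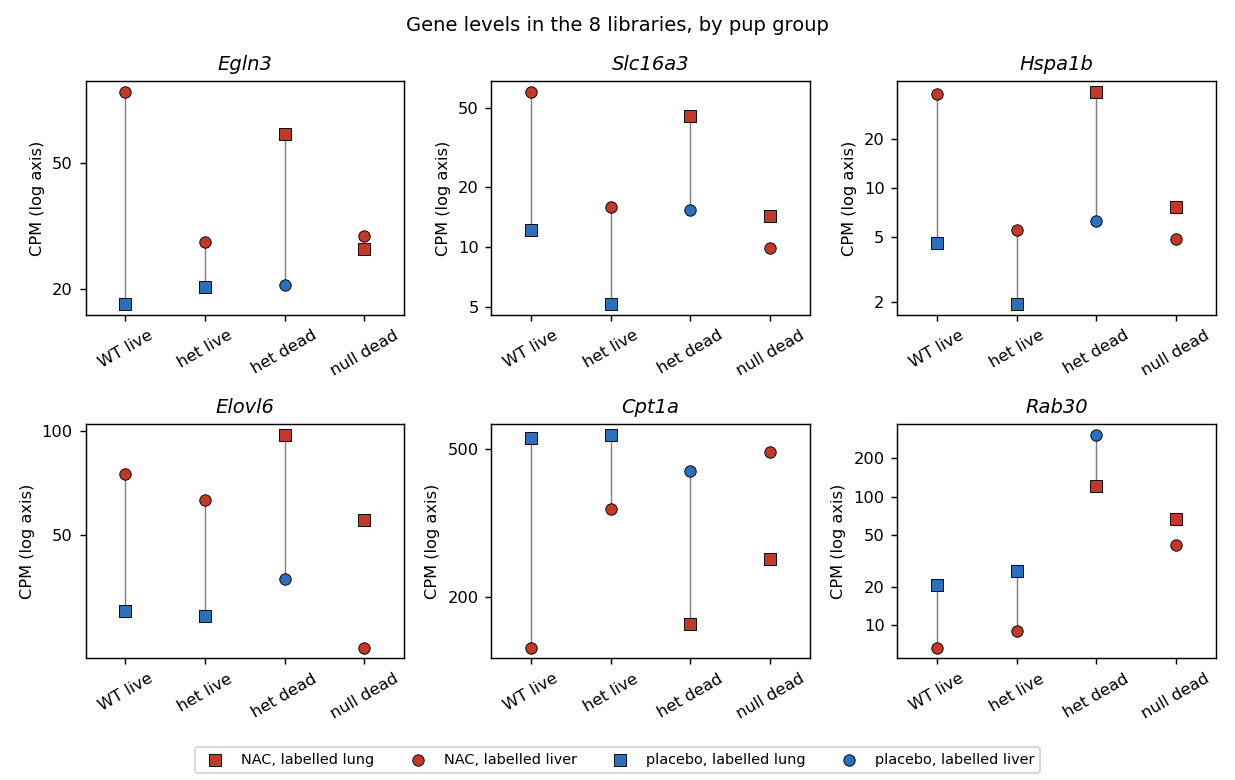
Level (CPM, log axis) of Egln3, Slc16a3, Hspa1b, Elovl6, Cpt1a and Rab30 in each of the 8 kept libraries, grouped by pup group, with NAC and placebo by colour and the labelled tissue by marker; lines join the libraries of a pair. Egln3 goes from 17.9 to 83.8 CPM in live WT pups, and the dead null NAC libraries, which have no placebo partner, are at 26.8 and 29.4.

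Hspa1a and Hspa1b, which encode the inducible HSP70 chaperones, led the heat shock list. Hspa1a (chromosome 17, 34969190 to 34972156) had 1.19 and 29.5 CPM in live WT pups, 0.364 and 3.72 in live heterozygous pups, and 3.16 and 28 in dead heterozygous pups, with 5.37 and 1.3 in the dead null NAC libraries labelled lung and liver. Every paired NAC library was above every placebo library, while the dead null library labelled liver lay between placebo values. Its log2FC was 3.72 (SE 0.62), with pair values of 4.49, 2.95 and 3.10, an edgeR unadjusted p of 0.000877 and a DESeq2 adjusted p of 2.08e-06. Hspa1b (chromosome 17, 34956436 to 34959238) had placebo values of 4.64, 1.94 and 6.31 CPM, paired NAC values of 37.4, 5.52 and 38.9, and dead null values of 7.65 and 4.89, with a log2FC of 2.42 (SE 0.37). In Hspa1b the live heterozygous NAC library was below the dead heterozygous placebo library, so the treatments overlapped. The coding sequences of this pair are nearly the same, and reads could be exchanged between them. Over the 19 heat shock genes tested, 6 were higher and 6 lower in all 3 pairs, against 19.5% and 16.2% of all genes, and the median was -0.07, close to that of all genes. Hspa8, the constitutive HSC70, had a log2FC of -0.54 (SE 0.21).

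Their promoters are shown for the heat shock element, in capitals, searched as GAANNTTC on both strands.
Hspa1a (chr17:34972157-34972406, minus strand): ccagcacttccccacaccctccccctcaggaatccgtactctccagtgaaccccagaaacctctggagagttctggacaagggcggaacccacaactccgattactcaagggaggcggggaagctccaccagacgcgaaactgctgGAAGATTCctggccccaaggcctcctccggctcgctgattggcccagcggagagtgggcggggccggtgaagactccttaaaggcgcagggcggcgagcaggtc
Hspa1b (chr17:34959239-34959488, minus strand): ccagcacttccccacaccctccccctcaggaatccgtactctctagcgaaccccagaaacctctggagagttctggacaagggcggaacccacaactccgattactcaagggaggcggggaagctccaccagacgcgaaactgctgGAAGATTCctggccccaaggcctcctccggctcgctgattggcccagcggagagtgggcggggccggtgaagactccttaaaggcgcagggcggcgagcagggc
These windows differed at 3 of 250 positions, and each held the motif 104 bases before the start. Of the heat shock genes, 13 matched with 19 promoters, and 6 (31.6%) held the motif against 6.69% of all promoters.

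Cholesterol and fatty acid synthesis genes had like medians in the 3 pairs. Of 30 genes tested, 25 were higher with NAC in all 3 pairs and 0 lower, against 19.5% and 16.2% of all genes, with pair medians of 0.69, 0.60 and 0.70 and a block median of 0.71. An unadjusted p under 0.05 in edgeR was reached by 6 genes, all higher, against 3.69% of all genes higher and 1.31% lower. None passed the adjusted threshold of edgeR. Elovl6, which lengthens palmitate, had 30 and 75.3 CPM in live WT pups, 28.9 and 63 in live heterozygous pups, and 37.2 and 97.7 in dead heterozygous pups, with 55.3 and 23.4 in the dead null NAC libraries labelled lung and liver. All paired NAC libraries were above every placebo library, the dead null library labelled liver was below them all, and the log2FC was 1.28 (SE 0.33). Fasn, the fatty acid synthase, had placebo values of 53.7, 43.1 and 83.8 CPM, paired NAC values of 179, 110.4 and 152, and dead null values of 132 and 39.4. This gave a log2FC of 1.32 (SE 0.46) with each paired NAC library above all placebo libraries, and the dead null libraries on either side of the placebo values.

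Scd1, the desaturase that makes oleate, had placebo values of 69.2, 11.5 and 142 CPM, paired NAC values of 191, 81.2 and 239, and dead null values of 364 and 11.2. Each NAC library was above its partner, but the treatments overlapped, and the log2FC was 1.66 (SE 1.11). The median of the synthesis genes was 0.80 in the libraries labelled lung and 0.35 in those labelled liver, and 0.65 to 0.68 without 1 of the pairs. The sterol regulatory element, searched as 1 fixed run of 10 bases on both strands, stood in 0 of 27 promoters of the 22 matched genes of this list, against 0.0731% of all promoters.

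Fatty acid oxidation and ketogenesis genes leaned the other way in live pups. Of 25 genes, 0 were higher and 7 lower in all 3 pairs, against 19.5% and 16.2% of all genes. The median was -1.13 in the live WT pair, -0.63 in the live heterozygous pair and 0.18 in the dead heterozygous pair, with -0.59 from the block. An unadjusted p under 0.05 was reached by 4 genes, all lower (1.31% of all genes), with 0 called by edgeR and 1 lower by DESeq2 (0.0231% of all genes). Cpt1a, the carnitine transferase that admits long-chain fatty acids to the mitochondrion (chromosome 19, 3322334 to 3385733), had 537 and 147 CPM in live WT pups, 546 and 345 in live heterozygous pups, and 436 and 169 in dead heterozygous pups, with 254 and 491 in the dead null NAC libraries labelled lung and liver. Paired NAC libraries were below all placebo libraries and the dead null library labelled liver was not. Its log2FC was -1.30 (SE 0.35) with pair values of -1.87, -0.66 and -1.37 and an edgeR unadjusted p of 0.00936. Acot1, a cytosolic acyl-CoA thioesterase that shares sequence with Acot2, had placebo values of 54.3, 134 and 26.9 CPM, paired NAC values of 6.82, 20.2 and 20.2, and dead null values of 26.8 and 92.9, with a log2FC of -2.07 (SE 0.70).

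Cidec, a lipid droplet protein named after its values were seen, had 1 count in the live WT NAC library. There were placebo values of 5.83, 6.2 and 6.88 CPM, paired NAC values of 0.0741, 1.03 and 2.87, and dead null values of 7.24 and 9.97, and DESeq2 gave an adjusted p of 0.015. The median of the oxidation genes was -1.41 among libraries labelled lung, where the NAC pups were dead and the placebo pups live. Among those labelled liver, where the only placebo library was of dead heterozygous pups, it was 0.92. Label and survival cannot be told apart between these sets. Without 1 of the pairs the median of the list was -0.99 to -0.27.

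Cytochrome P450 genes, which oxidise steroids, drugs and fatty acids and mature in liver after birth, had 4 of 32 higher and 11 lower in all 3 pairs, against 19.5% and 16.2% of all genes. Their pair medians were -0.95, -0.15 and -0.18, and the block median was -0.41. Cyp3a11, the main drug-metabolising member of its family, had 548 and 125 CPM in live WT pups, 791 and 583 in live heterozygous pups, and 505 and 279 in dead heterozygous pups, with 304 and 560.4 in the dead null NAC libraries labelled lung and liver. The paired values were lower with NAC in each group, although the live heterozygous NAC library lay above the live WT placebo library, and the log2FC was -1.13 (SE 0.41) with an edgeR unadjusted p of 0.0302. Cyp2e1 had a log2FC of -0.90 (SE 0.40). The median of the P450 genes was -0.80 in libraries labelled lung and 0.33 in those labelled liver. Cyp7a1, the rate-limiting enzyme of bile acid synthesis, had 0.12 (SE 0.19), and 0 of 16 bile acid genes were higher and 3 lower in all 3 pairs, against the same shares.

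Apolipoproteins, the carriers of plasma lipids, had 1 of 14 higher and 5 lower in all 3 pairs, against 19.5% and 16.2% of all genes, with medians of -0.63, -0.22 and 0.13. Apoa4, made by liver and gut, had placebo values of 1249, 1318 and 108 CPM, paired NAC values of 24.2, 349.6 and 90.5, and dead null values of 67.3 and 1683. Both live placebo libraries and the dead null library labelled liver held the most, and the other 5 at most 349.6 CPM, and the log2FC was -2.42 (SE 1.56). Apoa4 was at -4.04 in the libraries labelled lung, where edgeR called it at an adjusted p of 0.00995 and treatment and survival cannot be told apart, and at 2.65 in those labelled liver. The median of the apolipoproteins was -0.57 and 0.44 in these sets. Apoa5, a regulator of triglyceride clearance, split the libraries in the same way with placebo values of 744, 679 and 308 CPM, paired NAC values of 249, 329.7 and 279, and dead null values of 286 and 729.

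**Figure D5:**
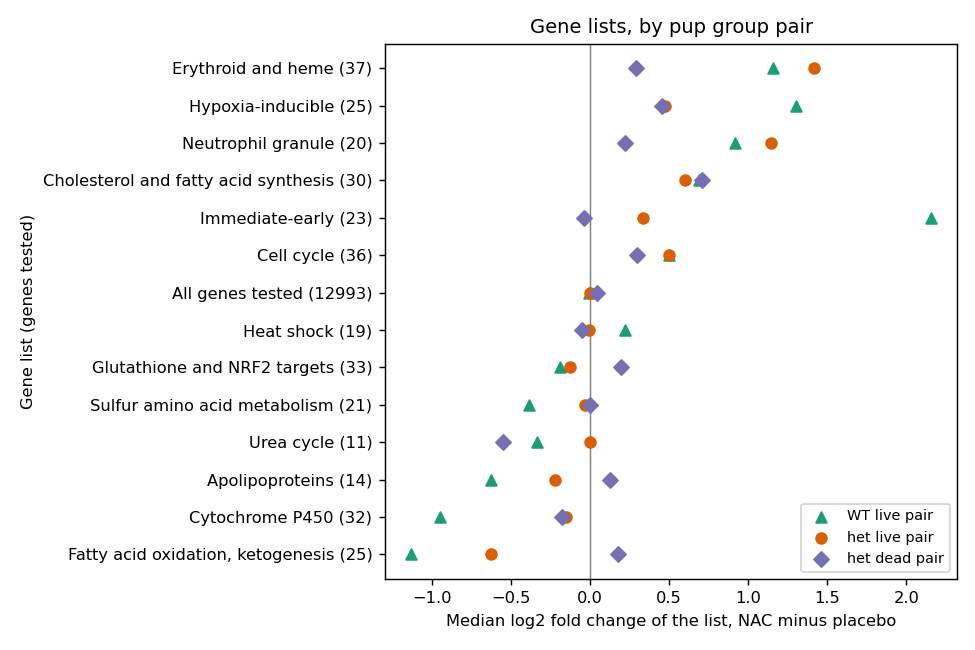
Median log2FC (NAC minus placebo) of each gene list in the live WT, live heterozygous and dead heterozygous pairs, with the number of genes tested after each name. Lipid synthesis lies between 0.60 and 0.70 in all 3 pairs, while fatty acid oxidation runs from -1.13 in live WT to 0.18 in dead heterozygous pups.

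The genes nearest to NAC itself showed little common shift. Of 33 glutathione and NRF2 target genes, 5 were higher and 8 lower in all 3 pairs, near the shares of all genes (19.5% and 16.2%), and the block median was -0.07. Gclc, the catalytic subunit of glutamate-cysteine ligase and the rate-limiting step of glutathione synthesis, had 98 and 77.2 CPM in live WT pups, 102 and 95.5 in live heterozygous pups, and 109 and 91.3 in dead heterozygous pups, with 119.7 and 94.4 in the dead null NAC libraries labelled lung and liver. The paired NAC libraries were a little below the placebo libraries and the dead null library labelled lung was above them, with a log2FC of -0.23 (SE 0.19). Its partner Gclm had 0.17 (SE 0.24), Nqo1, a quinone reductase, 0.12 (SE 0.26), Hmox1, which degrades heme, -0.28 (SE 0.19), Srxn1, the sulfiredoxin, -0.61 (SE 0.47) and Txnrd1, the cytosolic thioredoxin reductase, -0.15 (SE 0.16). None passed. The core of the antioxidant response element, TGACNNNGC, stood in 12 of 42 promoters (28.6%) of 28 matched genes, against 10.2% of all promoters.

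Sulfur amino acid metabolism, which turns methionine into cysteine and taurine, had 3 of 21 genes higher and 6 lower in all 3 pairs, against 19.5% and 16.2% of all genes, and a median of -0.19. Ahcy, the hydrolase that removes S-adenosylhomocysteine, had placebo values of 846, 905 and 1547 CPM, paired NAC values of 512, 649 and 746, and dead null values of 1182 and 975. In the pairs NAC was below all placebo libraries and both dead null libraries were above the lowest placebo value, with a log2FC of -0.75 (SE 0.21) and an edgeR unadjusted p of 0.0119. The methionine adenosyltransferase gene Mat1a had -0.45 (SE 0.36), and in the transsulfuration pathway Cbs had 0.13 (SE 0.23) and Cth -0.19 (SE 0.24). Cdo1, which oxidises cysteine, had -0.25 (SE 0.18).

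Fasting, gluconeogenesis and glycogen genes had 2 of 17 higher and 4 lower in all 3 pairs, against 19.5% and 16.2% of all genes, with a median of -0.18. Pck1, the committed step of gluconeogenesis, had 1310.1 and 691 CPM in live WT pups, 942 and 771 in live heterozygous pups, and 1999.6 and 892 in dead heterozygous pups, with 2237 and 1067 in the dead null NAC libraries labelled lung and liver. Each NAC library was below its partner, and the log2FC was -0.79 (SE 0.34). The urea cycle genes had 0 of 11 higher and 4 lower, with a median of -0.24. The median was 0.55 in libraries labelled lung and -0.97 in those labelled liver, sets that also differed in survival. Secreted plasma proteins (29 genes, median -0.04), hepatocyte transcription factors (20, -0.08), oncofetal and imprinted growth genes (15, 0.10) and acute-phase genes (19, 0.13) were near the median of all genes.

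Genes of blood-forming cells varied widely among these libraries. Erythroid and heme genes were higher in all 3 pairs for 31 of 37 genes and lower for 1, against 19.5% and 16.2% of all genes, with pair medians of 1.16, 1.41 and 0.29 and a block median of 0.95. The summed level of the list, placebo then NAC, was 34311 and 82679.8 CPM in live WT pups, 16129 and 57467 in live heterozygous pups, and 68473 and 74427 in dead heterozygous pups, and was 60487 and 16231 in the dead null NAC libraries labelled lung and liver. In bulk RNA, fewer cells of a type and less RNA per cell cannot be told apart. An unadjusted p under 0.05 was reached by 19 genes higher and 1 lower, against 3.69% and 1.31% of all genes, and 0 passed in edgeR. The range within the NAC libraries, from 16231 to 82679.8 CPM, covered nearly all of the placebo range. Uros, an enzyme of heme synthesis, had placebo values of 29.7, 19.4 and 30.5 CPM, paired NAC values of 46.7, 29.3 and 50.7, and dead null values of 11.4 and 17.4, with a log2FC of 0.66 (SE 0.22).

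Cell cycle genes were higher in all 3 pairs for 30 of 36 and lower for 0 (median 0.44), and neutrophil granule genes for 16 of 20 and lower for 0 (median 0.73), against 19.5% and 16.2% of all genes. Top2a, the topoisomerase of dividing cells, had a log2FC of 0.69 (SE 0.30), and Elane, neutrophil elastase, 0.91 (SE 0.38). The summed neutrophil level was 2678 and 5064 CPM in live WT pups, 2459.7 and 3997 in live heterozygous pups, and 4102 and 4835 in dead heterozygous pups, and was 5276 and 2799 in the dead null NAC libraries labelled lung and liver. In the libraries labelled liver these medians turned to -0.29 for erythroid, -0.28 for cell cycle and -0.04 for neutrophil genes, and in those labelled lung they were 1.01, 0.71 and 0.94. The erythroid sum was higher with NAC in all 3 pairs, as were the medians of lipid synthesis and hypoxia genes, and its part in those results was not tested.

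Markers of the other liver cells were counted in the same way, against the same 19.5% and 16.2%. Kupffer cell and macrophage genes had 1 of 20 higher and 2 lower in all 3 pairs (median -0.08), sinusoid and stellate cell genes 3 of 24 and 5 (0.02), cholangiocyte genes 3 of 8 and 0 (0.53), and megakaryocyte, mast and lymphoid genes 3 of 16 and 0 (0.07).

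Traces of other tissues were uneven. Ctrb1, the chymotrypsinogen of the pancreas, had 1, 3 and 1 counts in the placebo libraries of live WT, live heterozygous and dead heterozygous pups. The NAC libraries held 4, 364 and 2863 counts in the same order, with 22 and 12 in the dead null libraries labelled lung and liver. All 5 NAC libraries were above all placebo libraries, and no fold is given against values at or under the floor of 3 counts. Cela3b, a pancreatic elastase named after its values were seen, had 0, 1 and 3 counts with placebo and 3, 40 and 318 with NAC, and 5 in each dead null library. Pnliprp1, a pancreatic lipase, had placebo values of 3.32, 4.31 and 3.6 CPM, paired NAC values of 7.19, 13.1 and 86.6, and dead null values of 5.04 and 3.1. The dead heterozygous NAC library was the highest in each of these genes.

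Heart and skeletal muscle genes summed to 14.2, 39.7 and 131 CPM with placebo and to 890.4, 14.3 and 364 in the paired NAC libraries, with 858 and 16.6 in the dead null libraries labelled lung and liver. The live WT, dead heterozygous and dead null (labelled lung) NAC libraries held the most. The part of other tissues in the results above was not tested.

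Immediate-early genes, which respond within minutes to growth factors and handling, had their highest median in live WT pups. Their pair medians were 2.16, 0.33 and -0.04, and 7 of 23 were higher and 0 lower in all 3 pairs, against 19.5% and 16.2% of all genes. Junb had placebo values of 20.8, 19.9 and 21.1 CPM, paired NAC values of 150.4, 26.9 and 58.6, and dead null values of 86.6 and 23.6, with all 5 NAC libraries above all 3 placebo libraries, though the lowest NAC and highest placebo value were close. The log2FC was 1.58 (SE 0.64). Cyr61, a matricellular gene, had placebo values of 7.02, 3.1 and 6.5 CPM, paired NAC values of 78.1, 9.31 and 23.8, and dead null values of 16.9 and 4.77, with a log2FC of 2.32 (SE 0.59). Without 1 of the pairs the median of the list was 0.22 to 1.21.

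A second question was whether the difference between NAC and placebo was itself different in dead and live pups. The interaction of treatment with survival called 0 genes (0%) in edgeR, with a smallest adjusted p of 0.351, and 59 genes (0.454%) had an unadjusted p under 0.05. DESeq2 called 3, which were entries of 1 symbol, Amy2a5, a pancreatic amylase. The dead side was a single pair, and in simulated data this test recovered 0 of 200 genes changed 8-fold, so differences of that size could not be shown. Values for the genes with the smallest interaction p are given as a description. Pnliprp1 had pair values of 1.08, 1.57 and 4.54, Ctgf, a matricellular gene, 1.89, 0.48 and -1.38, Adgrf5, an adhesion receptor of endothelium, 0.39, -0.11 and -2.07, and Alox12, a lipoxygenase, -0.48, -0.48 and 1.13. Tgoln2, a trans-Golgi protein with a near-identical copy, had -0.46, -0.89 and -3.45.

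Gene categories that the study had compiled on these samples are not independent evidence of a direction. Of the oxidative stress response genes, 26 of 96 were higher and 9 lower in all 3 pairs (median 0.14), of glutathione metabolism 9 and 4 of 31 (0.05), and of the hypoxia response 10 and 5 of 52 (0.00). The unfolded protein response had 12 and 22 of 91 (-0.05) and N-glycan biosynthesis 11 and 9 of 43 (-0.05). The background was 19.5% higher and 16.2% lower. A further list of N-glycan mannosidase-step genes had 3 higher and 3 lower of 20 (0.01), the integrated stress and unfolded protein genes 2 and 5 of 28 (-0.10), and the cilium genes named by the study 3 and 0 of 12 (0.26).

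Man1a2, the targeted gene, does not check the genotype here because reads were counted over the whole gene while the allele lacks exon 2 alone. It had 27.3 and 23.8 CPM in live WT pups, 37.8 and 41.2 in live heterozygous pups, and 32.7 and 31.2 in dead heterozygous pups, with 28.1 and 27.2 in the dead null NAC libraries labelled lung and liver. The dead null libraries fell within the range of the others, and the NAC difference of -0.05 (SE 0.17) did not pass. Of the 32 genes fixed by name, 29 were tested (Slc7a11, Fgf21 and Dnah11 were under the filter). Among these, 2 had an edgeR unadjusted p under 0.05 (Hspa1a and Cyp3a11), against 4.99% of all genes. In all 3 pairs 2 were higher and 8 lower, against 19.5% and 16.2% of all genes. Alb had a log2FC of 0.18 (SE 0.40), Afp, the fetal counterpart of albumin, 0.19 (SE 0.27), and Hnf4a -0.42 (SE 0.24).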

How the data were processed

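The authors deposited 1 table of estimated counts without normalization, with 25054 entries named by gene symbol; 962 entries carry 329 repeated symbols and were kept apart. Per the methods, adapters were trimmed, reads of a stranded library were aligned with the Omicsoft Sequence Aligner to GRCm38 and uniquely mapped reads were kept. The submitters' processing notes name R 4.0.3 and edgeR 3.30.3. Fractional values made up 7.41% to 8.24% of each kept library, and counts were rounded before any step; the kept libraries held 14115802 to 16107749 counts.

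Libraries were kept at a raw Alb of at least 50000 CPM. The 12993 genes whose mean reached 1 CPM were scaled by TMM over the 8 kept libraries and tested in edgeR 4.0.16 (R 4.3.3) by the quasi-likelihood method, with terms for treatment and pup group (the block), which leaves 3 residual degrees of freedom; p-values were Benjamini-Hochberg adjusted over all 12993 genes. In the block fit, p-values rest on the spread between the 3 pair differences and between the dead null libraries. Each of these libraries was a pool. The standard error (SE) of a block log2FC was its absolute value divided by the square root of the quasi-likelihood F statistic. Pair log2FC used a prior count of 2. DESeq2 1.42.0 was the main alternative; others were the scaling, the filter, the terms of the model, the libraries of 1 label (added after seeing the data) and leaving out each library. In simulated data the block test recovered 0 of 200 genes changed 2-fold, 177 changed 4-fold and 199 changed 8-fold, and called 0, 19 and 11 unchanged genes. The simulation gave all pup groups the same level of a gene and changed all 200 genes at once. Its recovery may thus be higher than in the real libraries, where pup groups differ.

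The members, gene lists and tests were chosen with earlier results of these data known. Named genes were the 10 per direction with the smallest p, a mean of at least 10 CPM and one direction in all 3 pairs, 32 genes fixed by name, up to 3 genes per list and 5 for the interaction. Cidec, Cela3b, P4ha1 and P4ha2 were added after their values were seen. Positions come from GENCODE M21 (GRCm38) and promoters from RefSeq (GRCm38.p6). All 15 mitochondrially encoded genes listed were not analysed here, and the results for some named genes are not reported here.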

Additional observations from a re-analysis of the deposited data

Results flagged for a closer look

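Among the 5 NAC libraries, 93 genes were tested for a library far from the rest by Dixon's ratio on log2(CPM + 1), and 4 exceeded the critical value; chance gives about 1 in 20. Hif1a had a ratio of 0.804, with 72.7 CPM in the dead null library labelled lung against 36.0 to 41.3 in the others. Apoa5 had 0.739, with 729 CPM in the dead null library labelled liver against 249 to 330, and Elane had 0.738, with 30.3 CPM in that library against 68.0 to 90.2. Tgoln2 had 0.710, with 0.956 CPM in the dead heterozygous library against 8.47 to 17.0.

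For several lists the medians of both live pairs had one sign and that of the dead heterozygous pair the other. These differences were not tested. Some of the medians were very small, such as 0.0024 for sulfur amino acid metabolism and -0.036 for immediate-early genes in the dead pair. The median of the dead pair minus the mean of the live medians was 1.05 for fatty acid oxidation, 0.60 for Kupffer cell and macrophage genes, 0.55 for apolipoproteins, 0.39 for the study's glutathione category, 0.35 for glutathione and NRF2 targets, 0.21 for sulfur amino acid metabolism and 0.18 for hepatocyte transcription factors. It was -0.40 for acute-phase genes and -1.28 for immediate-early genes.

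Outside the kept libraries, Alb stood at 9280 CPM in the dead null placebo library labelled lung, while the other 7 libraries held 10.5 to 135 CPM.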

How the results depend on the processing

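The count of genes called with pup group as a block was 0 in each direction. It became 27 higher and 3 lower with DESeq2 and 4 higher without the dead null libraries, and leaving out 1 library gave 0 to 4 higher. The libraries labelled lung each came from a different pup group, so pup group could not be a block. There a contrast without it, of dead NAC with live placebo pups, called 10 higher and 18 lower. No other scaling, filter or model term gave a call. The interaction had 0 calls, and 3 with DESeq2. Genes past a 2-fold change numbered 1451, 658 and 776 in the live WT, live heterozygous and dead heterozygous pairs, with 37 higher and 4 lower in all 3 pairs; at a log2FC of 2 these were 282, 108, 85, 3 and 0, and at a mean of at least 10 CPM 676, 323, 255, 15 and 2. Of 1487 values for 93 genes under the alternatives, 1442 kept direction and call, 21 gained a call and 24 turned. Without the block these were Gclm (-0.025), Nqo1 (-0.099), Cyp7a1 (-0.21), Hif1a (0.090) and Ctgf (-0.16), and with survival in its place Nqo1 (-0.031), Hmox1 (0.067) and Cyp7a1 (-0.14); the cause was not tested. Leaving out 1 library gave -0.15 to 0.029 for Man1a2, -0.017 to 0.36 for Nqo1, -0.45 to 0.049 for Cth, -0.034 to 0.28 for Cyp7a1, -0.48 to 0.33 for Alox12, -0.48 to 1.21 for Ctgf and -1.09 to 0.14 for Adgrf5. Medians of the lists for fatty acid oxidation, apolipoprotein, urea cycle, P450, glutathione, gluconeogenesis, bile acid, Kupffer, erythroid, cell cycle and neutrophil genes and hepatocyte transcription factors had opposite signs in the libraries labelled lung and those labelled liver. Survival also differed between these sets. Those labelled lung set dead NAC against live placebo pups, and those labelled liver had their only placebo library from dead heterozygous pups. The 3 residual degrees of freedom and 1 pool per group limit the precision.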
